A study of Mus musculus with 27 samples.

Results

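Wnt signalling in the mouse hair follicle was described here through 41 genes: 19 Wnt ligands, 10 Frizzled receptors with the co-receptors Lrp5 and Lrp6, and 10 secreted inhibitors. The members were the rows with these symbols among 51906 genes of an RNA-seq count table, and among the genes of single cell matrices from skin and from cultured hair follicle stem cells (HFSCs). The RNA-seq comprised 8 libraries of HFSC cultures in 4 groups of 2, which crossed 2 genotypes (wild-type and Rxra cKO) with 2 media (FBS, a serum medium, and atRA+PKCi). The atRA+PKCi medium was serum-free and held all-trans retinoic acid and the protein kinase C inhibitor Go6976, so the contrast of media also contains the removal of serum. Rxra cKO names tamoxifen-treated mice with the alleles Sox9-CreER, Rxra-fl/fl and R26-YFP, in which Sox9-expressing cells lose the retinoid X receptor alpha and turn on YFP. HFSCs were sorted at postnatal day 55 in telogen, grown as lines on inactivated feeder cells and then in 3D. The skin matrices came from 2 mice at postnatal day 32, when hair follicles were growing (AnaVI), after a sort against CD45, CD31, CD140a and CD117. The cultured matrices came from CD34-sorted HFSCs of 2 mice, with hashtag antibodies marking each culture condition.

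Wnt proteins are lipid-modified ligands that bind a Frizzled receptor together with Lrp5 or Lrp6, which stabilises beta-catenin and lets TCF/LEF factors switch on their targets. Other Wnt and Frizzled pairs act without beta-catenin on cell shape and movement. Sfrp proteins, Frzb and Wif1 bind the ligands outside the cell, whereas Dkk1, Dkk2 and Dkk4 bind the Lrp co-receptors. In the hair follicle, Wnt signals pass between the dermal papilla and the overlying epithelium, drive the growth of new follicles and direct matrix cells towards the hair shaft, and stem cells at rest are known to be surrounded by inhibitors.

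RNA-seq libraries held between 25150300 and 35879800 estimated counts. Krt5 and Krt14, keratins of basal epithelium, lay at 8960 to 12300 and at 5720 to 22300 CPM (counts scaled to a library total of 1000000), and Cd34 at 0.385 to 2.91 CPM. Rxra, counted over the whole gene, was at 149 and 122 CPM in FBS and 147 and 143 in atRA+PKCi for wild-type, and at 97.2 and 95.7 in FBS and 148 and 145 in atRA+PKCi for Rxra cKO. The gene-level count includes exons outside the floxed part and does not check the deletion, so Rxra cKO here means the libraries labelled so. The 8 fibroblast markers summed to between 1.35 and 11.6 CPM in every library. Of 32589 skin barcodes, 27243 cells were kept (13713 and 13530 for the 2 mice), with medians of 8665 and 10430.5 UMIs (unique molecules) per cell, and the 2 matrices shared 62 barcodes. The cells fell into 35 clusters, of which 27 were gathered into 15 classes by marker genes. Classes bear the name of the cells they resemble. Although the sort was against CD140a, 39.66% and 35.63% of the cells were fibroblast-like. Immune-like (299 and 522), endothelial-like (78 and 125) and melanocyte-like cells (97 and 85) were also present after the sort against CD45, CD31 and CD117.

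In skin, the summed level of the secreted inhibitors was highest in dermal papilla-like cells, the signalling centre under the follicle. This class had 449 and 484 cells and all 11 dermal papilla markers over 10 CPM. Wif1 and Sfrp1 gave most of its summed level. Summed over the 10 inhibitors, the level in CPM of UMIs was 7113.6 and 6175.5 there in mouse 1 and mouse 2, 996.8 and 1097.0 in fibroblast-like cells and 562.4 and 624.4 in outer root sheath-like cells. The levels in skin are a description over 2 mice, with no test, and every order of classes is among the 15 named ones. Of 41 members, 31 reached 10 CPM in both mice in at least 1 class: 12 ligands, 11 receptors and 8 inhibitors. In this matrix UMIs were not corrected for free RNA.

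Wif1, which binds Wnt ligands through its WIF domain, stood at 3359 and 3276 CPM in dermal papilla-like cells, against 161 and 199 in mural and dermal sheath-like cells and 58.2 and 102 in hair matrix-like cells. It was found in 97.3% and 97.5% of dermal papilla-like cells, with median depths of 4187 and 6371 UMIs, and in 3.39% and 11.6% of erythroid-like cells (5193 and 4564 UMIs), a type that should lack the gene. Dermal papilla-like cells were 3.27% and 3.58% of the cells and held 67.8% and 65.0% of all Wif1 UMIs. Frzb, a further ligand-binding inhibitor, had 114 and 108 CPM in the same class, and 69.0% and 63.7% of its UMIs lay there. In Schwann-like cells, second for Frzb, the level was 9.37 and 11.1 CPM from 1 and 4 UMIs.

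Wif1 and Frzb are the members whose RNA was most tied to dermal papilla-like cells, and their promoters are shown for that reason, as 250 bases before to 50 bases after the start in RefSeq on GRCm38.p6. The promoter of Wif1 lies on the plus strand at chr10:121033754-121034053 and that of Frzb on the minus strand at chr2:80447347-80447646. Capitals mark the retinoid receptor half-site AGGTCA, here on the opposite strand and therefore written TGACCT, which begins 2 bases after the start of Frzb. Wif1 holds none and is printed in lower case.
Wif1: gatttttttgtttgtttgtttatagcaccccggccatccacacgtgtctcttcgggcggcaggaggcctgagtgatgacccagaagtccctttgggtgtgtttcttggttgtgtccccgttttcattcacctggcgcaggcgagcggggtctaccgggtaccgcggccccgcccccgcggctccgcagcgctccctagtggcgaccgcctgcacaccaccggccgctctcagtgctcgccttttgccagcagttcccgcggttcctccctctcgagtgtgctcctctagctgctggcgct
Frzb: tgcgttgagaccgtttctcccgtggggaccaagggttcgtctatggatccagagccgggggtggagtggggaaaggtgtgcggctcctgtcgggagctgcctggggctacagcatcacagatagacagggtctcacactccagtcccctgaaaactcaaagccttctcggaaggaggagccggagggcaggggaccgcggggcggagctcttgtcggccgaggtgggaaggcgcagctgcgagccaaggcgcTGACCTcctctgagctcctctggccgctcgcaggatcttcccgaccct
Half-sites on either strand were in 16.3% of all 32817 promoters in the RefSeq table, and in 2 of 30 promoters of the 27 members that have one there. Wnt16 was the other, at -237 bases from the start. Direct repeats of the half-site with 1, 2 or 5 bases between (AGGTCANAGGTCA, AGGTCANNAGGTCA and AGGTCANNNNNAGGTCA, in 0.0396%, 0.00914% and 0.00914% of all promoters) were found in no promoter of a member, and each of them also holds the half-site. The TCF/LEF core TTCAAAG, in 5.14% of all promoters, was found in Dkk1 at -117 bases. These are matches of letters, not sites shown to be bound.

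Sfrp1, another ligand-binding inhibitor, had 2888 and 2108 CPM in dermal papilla-like cells, then 467 and 519 in outer root sheath-like cells, where HFSCs reside, and 312 and 370 in fibroblast-like cells. Dkk2, which binds Lrp5 and Lrp6, stood at 433 and 392 CPM in dermal papilla-like cells and at 39.5 and 57.1 in mural and dermal sheath-like cells. For both genes the dermal papilla-like values of the 2 mice lay above those of every other named class. Most of their UMIs lay in other cells, since the class held 21.5% and 17.6% of Sfrp1 UMIs and 32.5% and 27.9% of Dkk2 UMIs. Dkk1, the classical antagonist of the co-receptors, had only 5 UMIs in all cells, and Dkk4 had 31.

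The other inhibitors led elsewhere. Dermal papilla-like cells held 2.71% and 2.15% of Sfrp2 UMIs, 0.135% and 0.164% of Sfrp4 UMIs and 6.03% and 5.74% of Dkk3 UMIs. Sfrp2 was at 320 and 450 CPM in fibroblast-like cells and 249 and 215 in dermal papilla-like cells, and the 2 classes were ordered alike in both mice. Sfrp4 was at 304 and 180 CPM in fibroblast-like cells and 179 and 165 in melanocyte-like cells, so that the classes overlapped between mice. Melanocyte-like cells held the fibroblast markers at a sum of 4674.2 CPM, against 59001.9 in fibroblast-like cells, and the part of fibroblast RNA in that value was not tested. Sfrp5 had its highest CPM in Schwann-like cells, at 187 and 303 from 20 and 109 UMIs in 22 and 55 cells, but most of its 91 and 296 UMIs lay in other cells. Dkk3, a divergent Dkk family member, was highest in melanocyte-like cells at 238 and 148 CPM, followed by mural and dermal sheath-like cells at 87.9 and 88.1. Its levels in dermal papilla-like (59.3 and 69.1) and outer root sheath-like cells (56.4 and 57.6) were close.

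**Figure D1:**
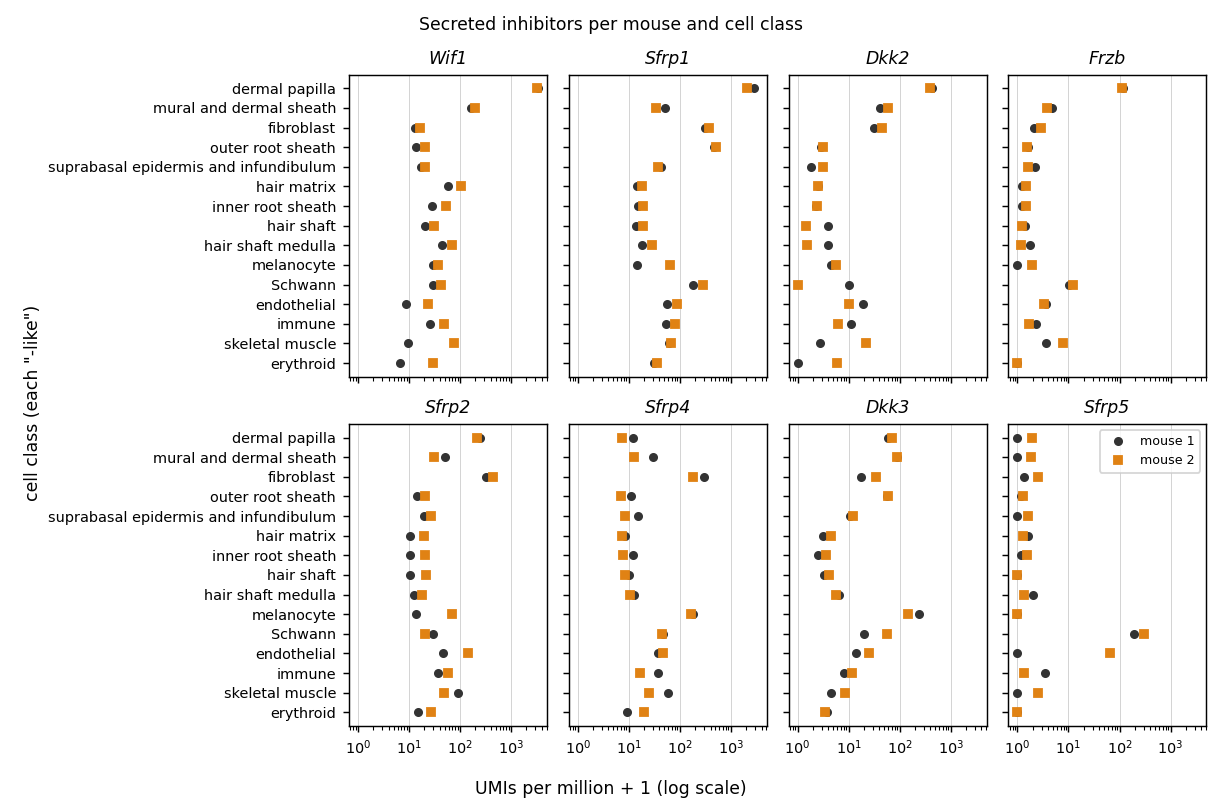
CPM of UMIs plus 1 (x axes, log scale) of 8 secreted inhibitors in 15 cell classes of AnaVI skin (y axis), with a circle for mouse 1 and a square for mouse 2 in each panel. Wif1, Sfrp1, Dkk2 and Frzb lie farthest right in dermal papilla-like cells in both mice (Wif1 at 3359 and 3276 CPM), Sfrp2 and Sfrp4 in fibroblast-like cells, Dkk3 in melanocyte-like cells and Sfrp5 in Schwann-like cells.

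Most of the 12 ligands detected had their highest mean level in an epithelial class. The summed level of the ligands was highest in hair shaft medulla-like cells, with 568.2 and 545.7 CPM, followed by hair matrix-like cells with 427.6 and 426.0. Dermal papilla-like cells (336.3 and 339.8) lay beside hair shaft-like cells (339.1 and 332.5). Melanocyte-like cells had 414.9 and 217.1, and outer root sheath-like cells only 127.6 and 134.1. Wnt4, a ligand known from epithelial development, was at 293 and 268 CPM in medulla-like cells, 202 and 188 in hair matrix-like cells and 170 and 150 in hair shaft-like cells. Melanocyte-like cells held 252 and 132 CPM of Wnt4 and overlapped the matrix. Wnt3, a ligand of the beta-catenin branch, was at 58.7 and 71.8 CPM in medulla-like cells and 48.1 and 63.0 in suprabasal epidermis and infundibulum-like cells, and these ranges overlapped.

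Wnt10b, a ligand of the beta-catenin branch that is known from the hair placode, was at 18.3 and 26.7 CPM in hair shaft-like cells and 13.9 and 19.3 in hair matrix-like cells. Wnt10a, its close relative, was at 52.4 and 49.6 CPM in suprabasal-like and 53.9 and 44.9 in hair shaft-like cells, with no order between the 2 classes. Wnt6 was at 51.9 and 42.9 CPM in hair matrix-like cells. Wnt7b reached 17.1 and 22.3 CPM and Wnt16 reached 10.7 and 18.7 in suprabasal-like cells. In mouse 1, however, Wnt16 led in fibroblast-like cells. It was at 20.7 and 11.7 CPM in a fibroblast-like cluster with 1571 and 38 cells of the 2 mice.

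Wnt5a, the typical ligand of the beta-catenin-independent branch, was highest in dermal papilla-like cells with 181 and 173 CPM, but 135 and 138 were also found in medulla-like and 109 and 130 in hair matrix-like cells. Its relative Wnt5b was at 107 and 121 CPM in dermal papilla-like cells and 42.9 and 55.5 in outer root sheath-like cells. Wnt9a reached 25.1 and 34.4 CPM in mural and dermal sheath-like and 19.0 and 21.9 in outer root sheath-like cells. Wnt11 was highest in mural and dermal sheath-like cells at 15.7 and 24.3 CPM. Wnt2 led in melanocyte-like cells of mouse 1 (133 CPM) but not of mouse 2 (28.3), whereas fibroblast-like cells had 80.9 and 43.7. Fibroblast-like cells of the 2 mice lay partly in different clusters, since mouse 1 gave 1571 of 1609 and 1425 of 1507 cells of 2 such clusters and mouse 2 gave 2036 of 2154 cells of another.

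Receptors were the broadest group, and outer root sheath-like cells had their highest sum, 650.5 and 740.5 CPM. Fzd2 was at 110 and 105 CPM there, Fzd6, which is known to orient hair follicles, at 78.0 and 89.2, and the co-receptor Lrp6 at 222 and 283. Other classes were not far below. Fzd2 was at 84.1 and 69.1 CPM in mural and dermal sheath-like cells and Fzd6 at 61.5 and 75.4 in hair shaft-like cells, both under the outer root sheath-like values. Lrp6 was at 152 and 224 CPM in inner root sheath-like cells and overlapped them. Fzd7 differed little among outer root sheath-like (29.2 and 35.3 CPM), mural and dermal sheath-like (31.4 and 32.7) and suprabasal-like cells (28.6 and 32.7).

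By class, a few receptors were highest outside outer root sheath-like cells. Fzd10 was at 78.0 and 106 CPM in hair matrix-like and 65.8 and 84.8 in inner root sheath-like cells. Fzd5 stood at 63.2 and 81.2 CPM in inner root sheath-like cells, above 35.9 and 37.9 in outer root sheath-like cells in both mice. Fzd4, the receptor known from blood vessels, was at 183 and 124 CPM in endothelial-like cells (78 and 125 cells) and 69.4 and 95.2 in fibroblast-like cells. By cluster, its mean was highest in a fibroblast-like cluster of 2242 cells, at 153 and 189 CPM. Among named classes Fzd1 was highest in dermal papilla-like cells at 102 and 113 CPM, below the 247 and 256 of an unnamed cluster of 599 cells whose leading genes included Krt15 and Lgr5. Lrp5 was at 42.4 and 68.3 CPM in endothelial-like and 40.5 and 44.0 in suprabasal-like cells. An inner root sheath-like cluster of 890 cells had Lrp5 at 68.5 and 83.3 CPM. Fzd3 led in Schwann-like cells at 84.3 and 91.8 CPM, from 9 and 33 UMIs, and Fzd8 in mural and dermal sheath-like cells at 27 and 16.5.

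Besides Dkk1 and Dkk4, 8 members reached 10 CPM in no class in both mice. Their UMIs over all cells were 58 for Wnt1, 139 for Wnt2b, 21 for Wnt3a, 20 for Wnt7a, 102 for Wnt8a, 12 for Wnt8b, 181 for Wnt9b and 36 for Fzd9. Wnt3a and Wnt7a were among the ligands of the cultures described next.

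**Figure D2:**
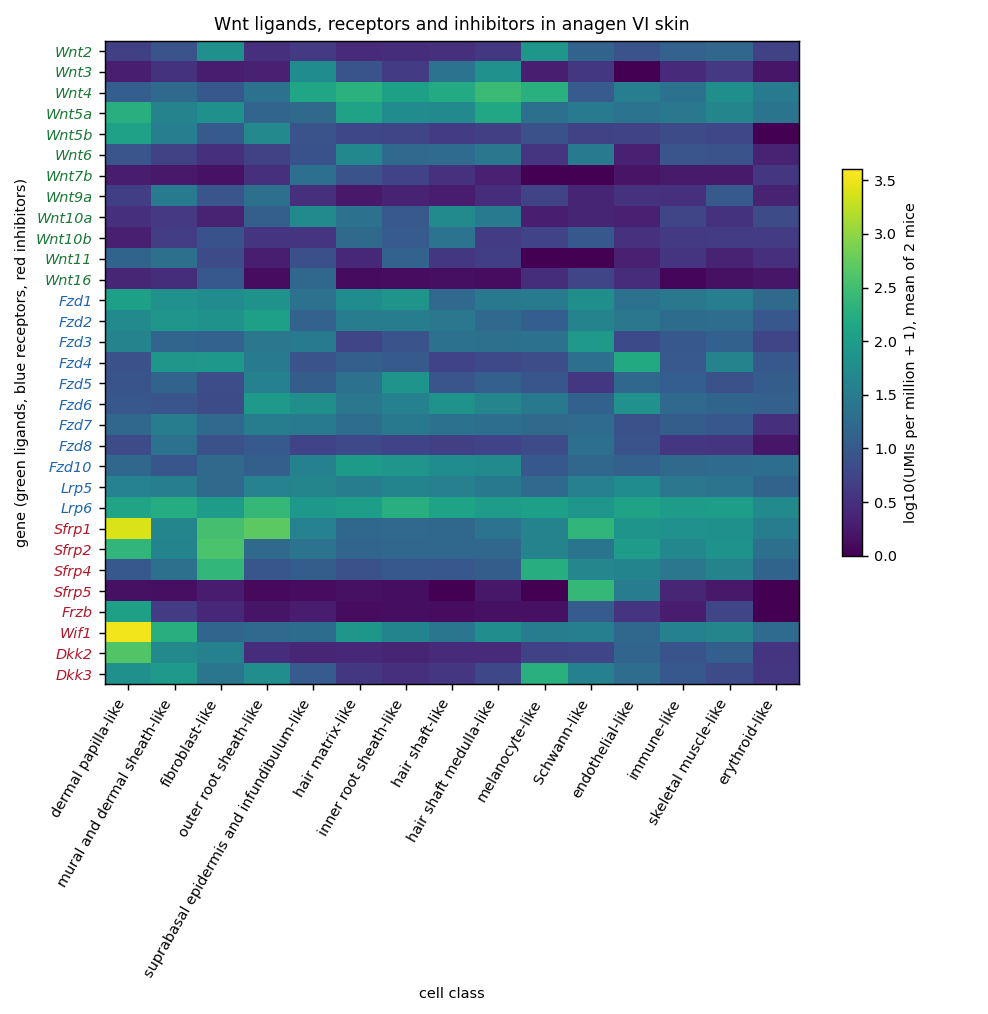
Mean level over 2 mice, as log10 of CPM of UMIs plus 1 (colour scale), of the 31 members that reached 10 CPM in both mice in at least 1 class (y axis, coloured by role) in 15 cell classes (x axis). Sfrp1 and Wif1 in dermal papilla-like cells are the brightest squares of the map, most ligands are brightest in epithelial layers or dermal papilla-like cells (Wnt2 in melanocyte-like and Wnt9a and Wnt11 in mural and dermal sheath-like cells), and the receptor Lrp6 is seen in all 15 classes.

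In the HFSC cultures, 24 of 41 members passed the filter on low counts and were tested: 11 ligands, 11 receptors and 2 inhibitors. A member that passed only through the group where it was high had to differ, so counts over the tested members are a description. The other 17 were Wnt1, Wnt2, Wnt2b, Wnt5b, Wnt8a, Wnt8b, Wnt9b, Wnt16, Fzd9, Sfrp2, Sfrp4, Sfrp5, Frzb, Dkk1, Dkk2, Dkk4 and Wif1. Wnt1, Wnt9b, Sfrp4, Dkk2 and Dkk4 had 0 counts in all 8 libraries. Thus Wif1, Frzb, Dkk2 and Sfrp2, which marked the mesenchyme of the skin, were under the filter in the epithelial cultures.

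Between genes, levels were set side by side as CPM per kb of exons. Wnt10a had the highest value of the 41 members in each group, at 41.3 CPM per kb in FBS and 39.0 in atRA+PKCi for wild-type and at 37.8 in FBS and 38.1 in atRA+PKCi for Rxra cKO. It did not pass the test in any comparison of groups with all 8 libraries, and without wild-type FBS replicate 2 it was lower by log2 fold changes of -0.22 in wild-type atRA+PKCi and -0.26 in Rxra cKO FBS (adjusted p 0.0482 and 0.0306). Fzd6 was the second member in wild-type cultures, with 31.3 CPM per kb in FBS and 34.9 in atRA+PKCi, and the fifth in Rxra cKO cultures, with 16.9 and 20.1. Wnt4 was at 19.8 CPM per kb in wild-type FBS and 33.6 in Rxra cKO atRA+PKCi. Fzd7 moved from rank 8 in wild-type FBS (7.39 CPM per kb) to rank 4 in wild-type atRA+PKCi (24.7), and Wnt9a from rank 7 (8.53) to rank 5 (21.4).

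**Figure D3:**
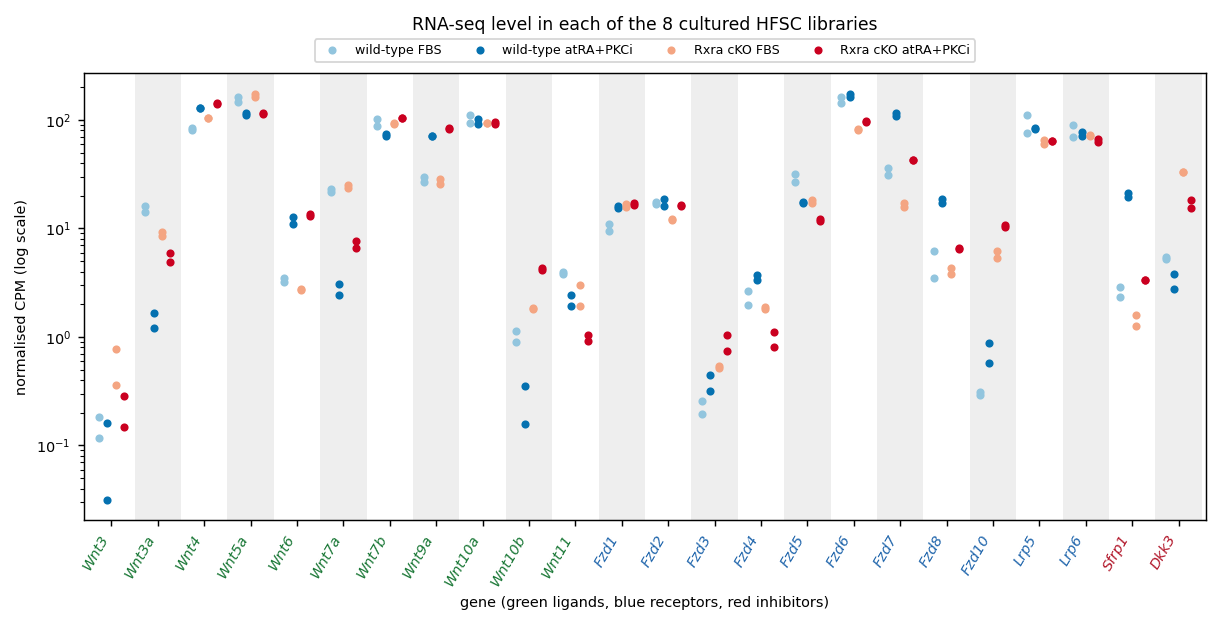
Normalised CPM (y axis, log scale) of the 24 tested members (x axis, coloured by role) in the 8 RNA-seq libraries, with one point per library and a colour for each of the 4 groups of 2. The 2 libraries of a group lie close together for most members, and Fzd10 and Dkk3 separate by genotype whereas Wnt6, Wnt9a and Fzd7 separate by medium in both genotypes.

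The first comparison asked how members differ between wild-type cultures in atRA+PKCi and in FBS. With edgeR's quasi-likelihood test at an adjusted p under 0.05, 8 of 24 members were higher in atRA+PKCi and 8 lower. Of all 15965 genes tested, 27.2% were higher and 26.6% lower. The median absolute log2 fold change was 0.73 over the members and 0.49 over all genes. By role, 3 ligands were higher and 6 lower, 4 receptors higher and 1 lower, and 1 inhibitor went each way. The p-values measure the spread between cultures from 2 mice per genotype. In bulk cultures, fewer cells of a type and less RNA per cell cannot be told apart. Markers of epithelial layers did not overlap between these media either. The 8 suprabasal markers summed to 3960 and 4350 CPM in FBS and to 383 and 406 in atRA+PKCi. The 8 outer root sheath markers summed to 33100 and 34500 and to 15300 and 15400. Most of that sum was Krt14 (20500 and 22300 CPM in FBS, 5720 and 5970 in atRA+PKCi) and Krt5 (12300 and 12000, 9260 and 9150). Sox9, on the same list, went the other way, from 105 and 81.8 CPM to 173 and 156. Krt15, a keratin of HFSCs, was at 3.65 and 4.75 CPM in FBS and at 4580 and 4430 in atRA+PKCi. Their part in the values of the members was not tested.

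Wnt3a, a ligand of the beta-catenin branch, fell from 16.1 and 14.3 CPM in FBS to 1.22 and 1.65 CPM in atRA+PKCi (log2 fold change -3.40 ± 0.18 SE, adjusted p 8.71e-07). The 2 media did not overlap. Wnt9a, the gene next to it, rose from 30.0 and 26.8 CPM to 70.8 and 71.4 (log2 fold change 1.33 ± 0.08 SE, adjusted p 2.03e-06). The 2 genes lie on chromosome 11 on opposite strands with starts 16.2 kb apart, and they changed in opposite directions in both genotypes. Their promoters are shown for that reason, at chr11:59290702-59291001 on the minus strand and chr11:59306680-59306979 on the plus strand (RefSeq, GRCm38.p6). With 86.3% and 83.3% G and C they hold none of the motifs searched, and no base is in capitals.
Wnt3a: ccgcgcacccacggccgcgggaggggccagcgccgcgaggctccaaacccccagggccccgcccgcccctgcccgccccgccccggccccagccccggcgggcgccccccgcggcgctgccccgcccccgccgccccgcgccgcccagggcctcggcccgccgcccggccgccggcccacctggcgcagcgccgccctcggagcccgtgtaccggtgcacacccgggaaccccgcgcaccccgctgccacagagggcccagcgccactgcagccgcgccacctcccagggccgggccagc
Wnt9a: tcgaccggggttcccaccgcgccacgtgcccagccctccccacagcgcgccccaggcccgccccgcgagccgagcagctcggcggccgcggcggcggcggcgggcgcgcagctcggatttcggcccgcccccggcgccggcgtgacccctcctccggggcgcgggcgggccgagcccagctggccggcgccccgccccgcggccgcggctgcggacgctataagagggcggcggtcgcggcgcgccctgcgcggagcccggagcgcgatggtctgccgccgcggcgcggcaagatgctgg
The neighbours Wnt6 and Wnt10a, with starts 19.6 kb apart on the same strand of chromosome 1, also differed, in that Wnt6 passed the test and Wnt10a did not. The difference between the neighbours was not tested.

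Wnt7a, a ligand of skin epithelium, fell from 21.8 and 23.1 CPM to 3.05 and 2.44 (log2 fold change -3.03 ± 0.14 SE, adjusted p 2.92e-07). Wnt10b was low and fell from 1.13 and 0.889 CPM to 0.353 and 0.158 (log2 fold change -1.97 ± 0.37 SE, adjusted p 0.00204). In neither did the media overlap. Wnt6 rose from 3.5 and 3.21 CPM to 11.1 and 12.8 (log2 fold change 1.83 ± 0.13 SE, adjusted p 5.41e-06).

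The other ligands that passed the test moved less. Wnt4 rose from 84.8 and 81.0 CPM to 129 and 128 (log2 fold change 0.63, adjusted p 3.43e-05). Wnt5a fell from 163 and 145 CPM to 111 and 115 (log2 fold change -0.44, adjusted p 0.00123), and Wnt7b fell from 101 and 87.1 CPM to 70.5 and 73.4 (log2 fold change -0.39, adjusted p 0.00317). For these 3 ligands the media did not overlap. Wnt11 fell from 4.01 and 3.79 CPM to 1.92 and 2.44 (adjusted p 0.0243), but this call was lost with DESeq2 (adjusted p 0.0596) and without wild-type FBS replicate 1 (0.0796) or replicate 2 (0.0534) or wild-type atRA+PKCi replicate 1 (0.106). Wnt3 lay at 0.182 and 0.116 CPM in FBS and 0.160 and 0.0317 in atRA+PKCi and did not pass.

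Among receptors, Fzd7, a receptor that many epithelial stem cells carry, rose from 36.2 and 30.8 CPM to 115 and 109 (log2 fold change 1.74 ± 0.09 SE, adjusted p 6.46e-07). Fzd8 rose from 6.2 and 3.52 CPM to 18.5 and 17.2 (log2 fold change 1.87 ± 0.22 SE, adjusted p 0.000128), and Fzd1 from 10.9 and 9.39 CPM to 16.1 and 15.5 (log2 fold change 0.64, adjusted p 0.000771). Fzd5 was the receptor that fell, from 31.8 and 26.8 CPM to 17.2 and 17.6 (log2 fold change -0.76, adjusted p 0.000228). The media did not overlap for any of these. Fzd10 rose from 0.292 and 0.309 CPM to 0.577 and 0.887 (adjusted p 0.00694), a call that was lost without wild-type atRA+PKCi replicate 2 (adjusted p 0.112) and with the 4 libraries compared alone (0.0605).

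Of the inhibitors, Sfrp1 rose from 2.88 and 2.32 CPM to 21.4 and 19.3 (log2 fold change 2.96 ± 0.16 SE, adjusted p 9.85e-07). Dkk3 fell from 5.22 and 5.45 CPM to 3.78 and 2.76 (log2 fold change -0.71 ± 0.16 SE, adjusted p 0.00592). The media did not overlap for either. The fibroblast markers summed to 11.6 and 7.76 CPM in FBS and 1.35 and 4.37 in atRA+PKCi. The part of fibroblast RNA in the values of Sfrp1 and Dkk3 was not tested. Fzd2, Fzd3, Fzd4, Fzd6, Lrp5 and Lrp6 did not pass the test, with log2 fold changes between -0.17 and 0.76. Leaving out wild-type FBS replicate 2, in which Lrp5 was at 75.7 CPM against 112 in replicate 1, gave Lrp5 a log2 fold change of -0.44 (adjusted p 0.0013) and called Lrp6 (0.0245), and leaving out replicate 1 called Fzd4 and Fzd6 (0.0487 and 0.0243).

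In Rxra cKO cultures, the same contrast of media gave 10 members higher and 7 lower, where 20.8% of all genes were higher and 22.2% lower. The suprabasal markers went from 2100 and 2570 to 1020 and 955 CPM and Krt15 from 6.51 and 8.23 to 251 and 245 CPM in this genotype, so that the genotypes overlapped in neither medium, and their part in these comparisons was not tested. Of the 24 members, 14 passed the test in both genotypes, and 13 of these had the same direction. The matching shares of all genes, in both genotypes or in 1 alone, were not computed, so these counts of members are a description. Wnt6 rose from 2.70 and 2.75 CPM to 12.9 and 13.7 (log2 fold change 2.28 ± 0.13 SE, adjusted p 3.52e-06). Wnt9a rose from 25.6 and 28.6 CPM to 83.8 and 83.0 (log2 fold change 1.62 ± 0.08 SE, adjusted p 1.52e-06). Fzd7 rose from 15.9 and 17.1 CPM to 43.0 and 42.8 (log2 fold change 1.38, adjusted p 7.2e-06). In these 3 members the media did not overlap in either genotype.

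Wnt3a and Wnt7a fell in Rxra cKO cultures too, Wnt3a from 8.56 and 9.20 CPM to 4.90 and 5.89 (log2 fold change -0.72, adjusted p 0.00617) and Wnt7a from 25.4 and 23.4 CPM to 6.57 and 7.6 (log2 fold change -1.79, adjusted p 8.15e-06). The call of Wnt3a was lost without Rxra cKO atRA+PKCi replicate 1 (log2 fold change -0.57, adjusted p 0.0692). Sfrp1 rose from 1.58 and 1.26 CPM to 3.33 and 3.32 (log2 fold change 1.22, adjusted p 0.000684), and Dkk3 fell from 33.3 and 33.3 CPM to 15.5 and 18.4 (log2 fold change -0.98, adjusted p 0.000442). Wnt4, Wnt5a, Wnt11, Fzd5, Fzd8 and Fzd10 also moved as in wild-type, with log2 fold changes of 0.42, -0.54, -1.32, -0.56, 0.68 and 0.87. Of these, Fzd8 lost its call without any 1 of the 4 Rxra cKO libraries (adjusted p 0.0955 to 0.156) and without wild-type atRA+PKCi replicate 2 (0.0527).

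In Rxra cKO cultures alone, 3 members passed. Fzd2 rose from 12.0 and 12.2 CPM to 16.2 and 16.5 (adjusted p 0.00766, or 0.0545 without Rxra cKO atRA+PKCi replicate 2). Fzd4 fell from 1.80 and 1.88 CPM to 0.812 and 1.12 (adjusted p 0.0201, but 0.075 with DESeq2, 0.0618 and 0.0771 without Rxra cKO FBS replicate 1 or 2 and 0.155 without Rxra cKO atRA+PKCi replicate 1). Fzd6 rose from 81.9 and 81.0 CPM to 96.5 and 97.2, a log2 fold change of 0.25 (adjusted p 0.031), and lost the call without any 1 of the 4 libraries (adjusted p 0.0619 to 0.138) and with the replicate block that pairs cultures of 1 mouse (0.0515). Wnt7b and Fzd1 passed in wild-type cultures alone, although Wnt7b also passed in Rxra cKO with the 4 libraries compared alone (0.0412) and without wild-type FBS replicate 1 or 2 (0.0341 and 0.036). Such a gene is not shown to differ between genotypes unless the difference itself was tested, as described further on.

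**Figure D4:**
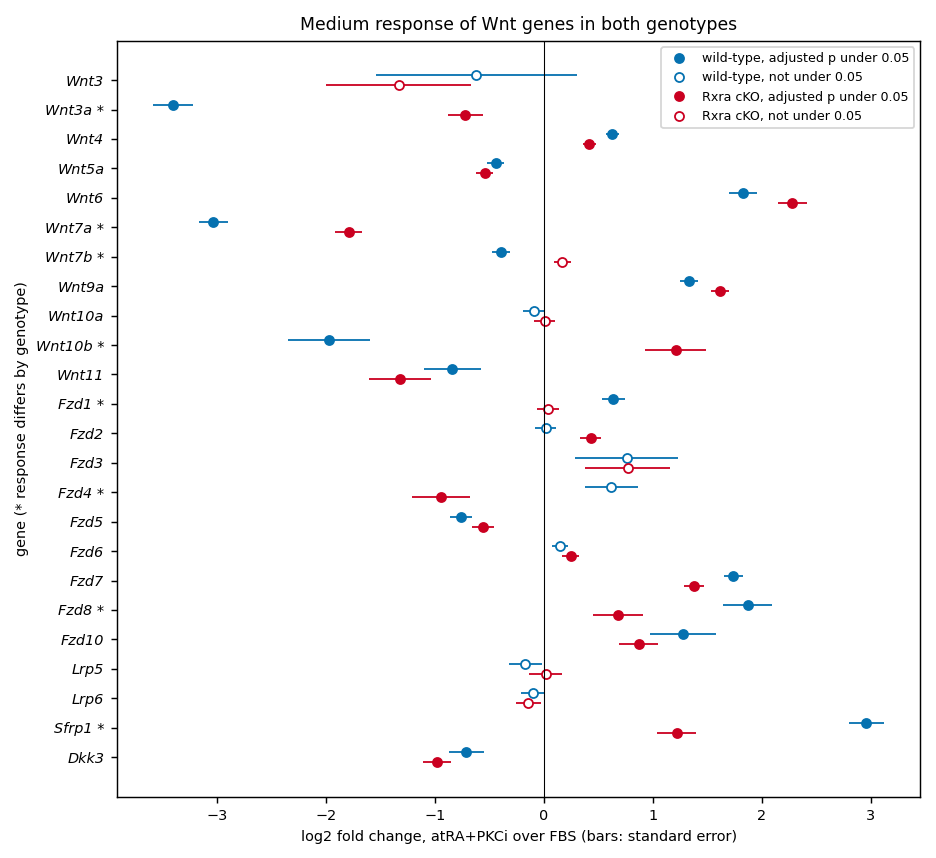
Log2 fold change of atRA+PKCi over FBS (x axis, bars of 1 SE) for the 24 tested members (y axis) in wild-type (blue) and Rxra cKO cultures (red), filled where the adjusted p was under 0.05, with a star where the interaction passed the test. Wnt10b lies at -1.97 (wild-type) and 1.21 (Rxra cKO), and Wnt3a and Sfrp1 lie farther from 0 in wild-type.

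Between genotypes in FBS, 4 members were higher in the libraries labelled Rxra cKO and 7 lower, with 22.3% of all genes higher and 20.5% lower. Fzd10 showed the widest gap, with 0.292 and 0.309 CPM in wild-type libraries against 6.19 and 5.38 in Rxra cKO (log2 fold change 4.25 ± 0.26 SE, adjusted p 5.76e-06). Dkk3 was at 33.3 and 33.3 CPM in Rxra cKO against 5.22 and 5.45 in wild-type (log2 fold change 2.64 ± 0.15 SE, adjusted p 3.72e-06). Fzd1 and Wnt4 were higher by 0.69 and 0.34 on the log2 scale (adjusted p 0.000813 and 0.00206). In none of the 4 did the genotypes overlap.

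The lower members in FBS were mainly receptors. Fzd7 was at 15.9 and 17.1 CPM in Rxra cKO against 36.2 and 30.8 in wild-type (log2 fold change -1.02 ± 0.09 SE, adjusted p 5e-05). Fzd6 was at 81.9 and 81.0 CPM against 161 and 142 (log2 fold change -0.89 ± 0.08 SE, adjusted p 4.16e-05), and Fzd5 at 17.2 and 18.1 CPM against 31.8 and 26.8 (log2 fold change -0.73, adjusted p 0.000462). The genotypes did not overlap in these receptors. Fzd2, Wnt3a and Sfrp1 were lower with log2 fold changes of -0.50, -0.77 and -0.87 (adjusted p 0.0036, 0.00373 and 0.00502). Lrp5 was lower too (log2 fold change -0.57, adjusted p 0.0149), but not without either Rxra cKO FBS replicate (adjusted p 0.0798 and 0.0512). Of the members not called, Fzd8 (adjusted p 0.0126) and Lrp6 (0.0138) were called without wild-type FBS replicate 2, Wnt11 without Rxra cKO FBS replicate 2 (0.0307), Wnt10b without either wild-type atRA+PKCi replicate (0.0267 and 0.0254) and Wnt3 with no filter (0.0422) or the 4 libraries compared alone (0.047).

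In atRA+PKCi, 8 members were higher in Rxra cKO and 7 lower, with 23.0% of all genes higher and 20.2% lower. The median absolute log2 fold change was 0.98 over the members and 0.38 over all genes. This comparison and the one in FBS have no library in common, whereas each shares libraries with the comparisons of media. Fzd10 remained at 10.4 and 10.8 CPM in Rxra cKO against 0.577 and 0.887 in wild-type (log2 fold change 3.84 ± 0.22 SE, adjusted p 2.87e-06). Dkk3 was at 15.5 and 18.4 CPM against 3.78 and 2.76 (log2 fold change 2.37 ± 0.15 SE, adjusted p 5.75e-06).

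Wnt10b had 4.35 and 4.10 CPM in Rxra cKO atRA+PKCi and 0.353 and 0.158 in wild-type atRA+PKCi (log2 fold change 4.03 ± 0.35 SE, adjusted p 3.06e-05). Wnt3a was at 4.90 and 5.89 CPM against 1.22 and 1.65 (log2 fold change 1.90 ± 0.18 SE, adjusted p 5.9e-05) and Wnt7a at 6.57 and 7.6 against 3.05 and 2.44 (log2 fold change 1.36 ± 0.14 SE, adjusted p 8.3e-05). In these 3 ligands every Rxra cKO library was above every wild-type library. Wnt7b was higher by 0.54 on the log2 scale (105 and 104 CPM against 70.5 and 73.4, adjusted p 0.000713). Wnt9a (log2 fold change 0.23, adjusted p 0.0405) and Fzd3 (log2 fold change 1.23, adjusted p 0.035) lost their calls without any 1 of the 4 libraries compared (adjusted p 0.097 to 0.139 and 0.0621 to 0.231), and Fzd3 also with DESeq2 (0.218), with no filter (0.0526) and without either Rxra cKO FBS replicate (0.0531 and 0.0565). Lrp5 was not called (log2 fold change -0.38, adjusted p 0.0726), but was in 5 of 11 alternatives, with no filter (0.000152), the 4 libraries compared alone (0.000492), DESeq2 (0.0438) and without either wild-type FBS replicate (0.00108 and 0.00116). Lrp6 was called with those 4 libraries (0.0352) and without either wild-type FBS replicate (0.0436 and 0.0451), and Wnt4 with those 4 libraries (0.0467).

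Lower in Rxra cKO atRA+PKCi were Sfrp1, at 3.33 and 3.32 CPM against 21.4 and 19.3 (log2 fold change -2.61 ± 0.16 SE, adjusted p 3.65e-06), and Fzd7, at 43.0 and 42.8 CPM against 115 and 109 (log2 fold change -1.38 ± 0.09 SE, adjusted p 4.97e-06). Fzd8 was at 6.44 and 6.56 CPM against 18.5 and 17.2 (log2 fold change -1.46, adjusted p 0.000683), Fzd4 at 0.812 and 1.12 CPM against 3.75 and 3.33 (log2 fold change -1.89, adjusted p 0.000485) and Fzd6 at 96.5 and 97.2 CPM against 161 and 175 (log2 fold change -0.79, adjusted p 6.47e-05). No library of one genotype reached into the other in these members. Fzd5 was lower by a log2 fold change of -0.53 (adjusted p 0.00289). Wnt11 was lower (log2 fold change -1.16, adjusted p 0.00989), but not without Rxra cKO atRA+PKCi replicate 1 (adjusted p 0.0783) or wild-type atRA+PKCi replicate 2 (0.0579).

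Whether the medium changed a member differently in the 2 genotypes was tested by the interaction of genotype and medium, in which a positive value means a higher log2 fold change in wild-type. Here 4 members were higher and 4 lower, with 11.3% of all genes higher and 13.3% lower, and a median absolute value of 0.40 over the members and 0.38 over all genes. All 4 lower members were ligands, Wnt10b, Wnt3a, Wnt7a and Wnt7b, and the higher ones were Fzd1, Fzd4, Fzd8 and Sfrp1. Wnt10b had an interaction of -3.18 ± 0.47 SE (adjusted p 0.00159), since it fell in wild-type cultures and rose from 1.83 and 1.81 CPM to 4.35 and 4.10 in Rxra cKO cultures (log2 fold change 1.21 ± 0.28 SE, adjusted p 0.00828). The rise in Rxra cKO was lost without Rxra cKO FBS replicate 2 (adjusted p 0.0508) or Rxra cKO atRA+PKCi replicate 1 (0.0582), whereas the interaction held without any 1 library.

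As the ligand with opposite directions, Wnt10b is shown with its promoter, on the minus strand at chr15:98778101-98778400 (RefSeq, GRCm38.p6), which has 66.3% G and C and none of the motifs searched.
Wnt10b: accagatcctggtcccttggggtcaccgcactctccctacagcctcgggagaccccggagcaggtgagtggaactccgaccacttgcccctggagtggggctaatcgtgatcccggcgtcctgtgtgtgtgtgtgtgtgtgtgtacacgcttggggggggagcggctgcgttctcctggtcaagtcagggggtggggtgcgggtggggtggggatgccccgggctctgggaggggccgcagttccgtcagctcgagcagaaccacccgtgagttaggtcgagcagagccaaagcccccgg
Wnt1, whose start lies 11.7 kb away on the opposite strand of chromosome 15, had 0 counts in every library.

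For Wnt3a the interaction was -2.68 ± 0.24 SE (adjusted p 0.000116), for Wnt7a -1.24 ± 0.18 SE (adjusted p 0.0015) and for Wnt7b -0.56 ± 0.11 SE (adjusted p 0.00764). For Sfrp1 it was 1.74 ± 0.24 SE (adjusted p 0.00115). Fzd4 (1.56 ± 0.36 SE, adjusted p 0.0145) was at 2.63 and 1.97 CPM in FBS and 3.75 and 3.33 in atRA+PKCi for wild-type, where it did not pass the test, and lost the interaction without Rxra cKO atRA+PKCi replicate 1 (adjusted p 0.0718). Fzd8 (1.19 ± 0.32 SE, adjusted p 0.0254) and Fzd1 (0.60 ± 0.14 SE, adjusted p 0.016) were less firm. Fzd8 lost the interaction without any 1 of the 4 Rxra cKO libraries or without wild-type atRA+PKCi replicate 1 (adjusted p 0.0572 to 0.0901). Fzd1 lost it with DESeq2 (0.0593) and without Rxra cKO FBS replicate 2, either Rxra cKO atRA+PKCi replicate or wild-type atRA+PKCi replicate 1 (0.0515 to 0.0918). The interactions of Wnt6, Wnt9a and Fzd7, which rose in both genotypes, were -0.45, -0.29 and 0.36 (adjusted p 0.114, 0.0956 and 0.0726). Wnt9a (adjusted p 0.0331) and Lrp5 (0.00926) had an interaction once wild-type FBS replicate 2 was left out, as had Fzd7 without replicate 1 (0.0119) and Fzd2 without wild-type atRA+PKCi replicate 1 (0.0326). With all 8 libraries, Wnt3, Wnt10a and Lrp6 passed none of the 5 tests.

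Beyond the 41 members, 37 of 47 other genes of the pathway were tested. In wild-type cultures 15 were higher and 5 lower in atRA+PKCi, and in Rxra cKO cultures 14 were higher and 4 lower, beside the 27.2% and 26.6%, and 20.8% and 22.2%, of all genes given above. Notum, an enzyme that inactivates Wnt ligands, rose from 0.949 and 0.695 CPM to 10.6 and 9.95 in wild-type (log2 fold change 3.63 ± 0.22 SE, adjusted p 1.76e-06). Ror1, a receptor for Wnt5a, rose from 1.5 and 1.16 CPM to 12.9 and 12.4 (log2 fold change 3.24, adjusted p 1.74e-06). Porcn, which attaches the lipid to Wnt ligands, fell from 78.7 and 79.2 CPM to 30.4 and 29.2 (log2 fold change -1.40, adjusted p 1.45e-06). Rspo1, a ligand that enhances Wnt signals, was at 0.766 and 0.927 CPM in FBS and had 0 counts in both wild-type atRA+PKCi libraries. In the comparisons of genotypes, 6 were higher and 12 lower in FBS and 12 higher and 9 lower in atRA+PKCi, beside 22.3% and 20.5%, and 23.0% and 20.2%, of all genes. Axin2, a feedback target of beta-catenin, was named after its values were seen. It was at 5.45 and 5.45 CPM in wild-type atRA+PKCi and 15.8 and 14.3 in Rxra cKO atRA+PKCi (edgeR log2 fold change 1.47 ± 0.14 SE, adjusted p 4.77e-05). Of 8 feedback targets listed, 6 were tested, and 4 were higher and 0 lower in this comparison. Notum went the other way, at 10.6 and 9.95 CPM in wild-type atRA+PKCi and 1.7 and 1.79 in Rxra cKO atRA+PKCi.

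In the cultured single cells, 449 and 208 barcodes left 222 and 78 cells with 1 hashtag after the filters. Their UMIs were summed per mouse and condition. Sums were made for B-27, the serum-free supplement (5 and 10 cells for mouse 1 and mouse 2), R-spondin (Rspo, 5 and 6), BMP2/4 (113 and 13), Rspo+BMP2/4 (92 and 27) and Rspo+BMP2/4+RARi with a retinoic acid receptor inhibitor (5 and 21). FBS had 0 cells and atRA+PKCi 2 and 1, and they were not used. Of the conditions used, all but B-27 also contained atRA+PKCi, so BMP2/4 against B-27 holds that difference too. Krt14 was at 4100 to 14400 CPM in the sums, Cd34 had 0 UMIs and the fibroblast markers reached at most 5.29 CPM.

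Of the members, 11 reached 10 CPM in both mice in at least 1 condition and 13 had no UMI. The 11 were Wnt4, Wnt6, Wnt7b, Wnt9a, Wnt10a, Fzd2, Fzd6, Fzd7, Fzd8, Lrp5 and Lrp6, and no inhibitor was among them. Wif1 and Frzb had 0 UMIs. Sfrp1 lay between 0 and 6.88 CPM over the sums. In skin it was at 467 and 519 CPM in outer root sheath-like cells. It was at 17.9 and 17.5 in the unnamed cluster of 599 cells whose leading genes included Krt15 and Lgr5. In the RNA-seq of wild-type atRA+PKCi cultures it was at 21.4 and 19.3 CPM. These values come from separate libraries and were not compared by a test. Only Wnt4, Wnt9a, Wnt10a, Fzd6, Lrp5 and Lrp6 passed the filter for the test.

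With BMP2/4 against B-27, 1 of these 6 members was higher and 0 lower by edgeR's quasi-likelihood test, with 1.53% of 6265 genes higher and 8.84% lower. Of the 6, 2 had an unadjusted p under 0.05, and DESeq2 called 0. The B-27 sums of Wnt9a were 5.29 and 0 CPM (1 and 0 UMIs), and its BMP2/4 sums were 46.8 and 54.8 CPM (173 and 28 UMIs), without overlap. The ratio of summed UMIs was 19.5, with an exact 95% interval of 3.46 to 775 that covers counting error only. The adjusted p was 0.00768, but it was 0.0531 with DESeq2, 0.107 without B-27 replicate 2 and 0.063 without BMP2/4 replicate 1. Wnt9a UMIs were found in 59.3% and 53.8% of BMP2/4 cells, at median depths of 32523 and 29890 UMIs against 27849 and 15300 in B-27.

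The remaining members did not pass. Lrp5 was at 127 and 150 CPM in B-27 and 50.1 and 76.3 in BMP2/4 (log2 fold change -1.08 ± 0.46 SE, adjusted p 0.152). Fzd6 was at 58.2 and 72.8 CPM and at 101 and 114 (log2 fold change 0.80 ± 0.55 SE, adjusted p 0.38). Wnt4, Wnt10a and Lrp6 had log2 fold changes of 0.53, -0.04 and -0.74. The conditions did not overlap for Lrp5, Fzd6, Wnt4 and Lrp6, although none of them passed the test, and they overlapped for Wnt10a. With 2 sums per condition a lack of overlap can arise without a difference. The share of all genes without overlap was not computed.

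When Rspo was added to BMP2/4, or RARi to both, edgeR called 0 members and 0% of the 6265 genes at an adjusted p under 0.05. DESeq2 called 0 as well. With hashtags at 70% of at least 20 counts, edgeR called 9 genes higher and 3 lower with RARi. Unadjusted, 44 and 232 genes had a p under 0.05 and 0 of the 6 members did in either. Among 21 other pathway genes, Axin2 and Rnf43 had the largest log2 fold changes with Rspo (2.33 and 2.21, edgeR adjusted p 0.205 for each). With 2 sums per condition, a lack of calls does not show that levels were equal. Wnt9a was at 34.2 and 40.7 CPM in Rspo+BMP2/4 and at 0 and 23.2 with RARi, where the sum of mouse 1 has 5 cells and a limit of 31.2 CPM for a count of 0 (log2 fold change -1.06 ± 0.60 SE, adjusted p 0.959). Wnt4 was at 180 and 164 CPM in BMP2/4, 163 and 142 in Rspo+BMP2/4 and 135 and 279 with RARi, where the 2 mice spanned the values of the other conditions.

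**Figure D5:**
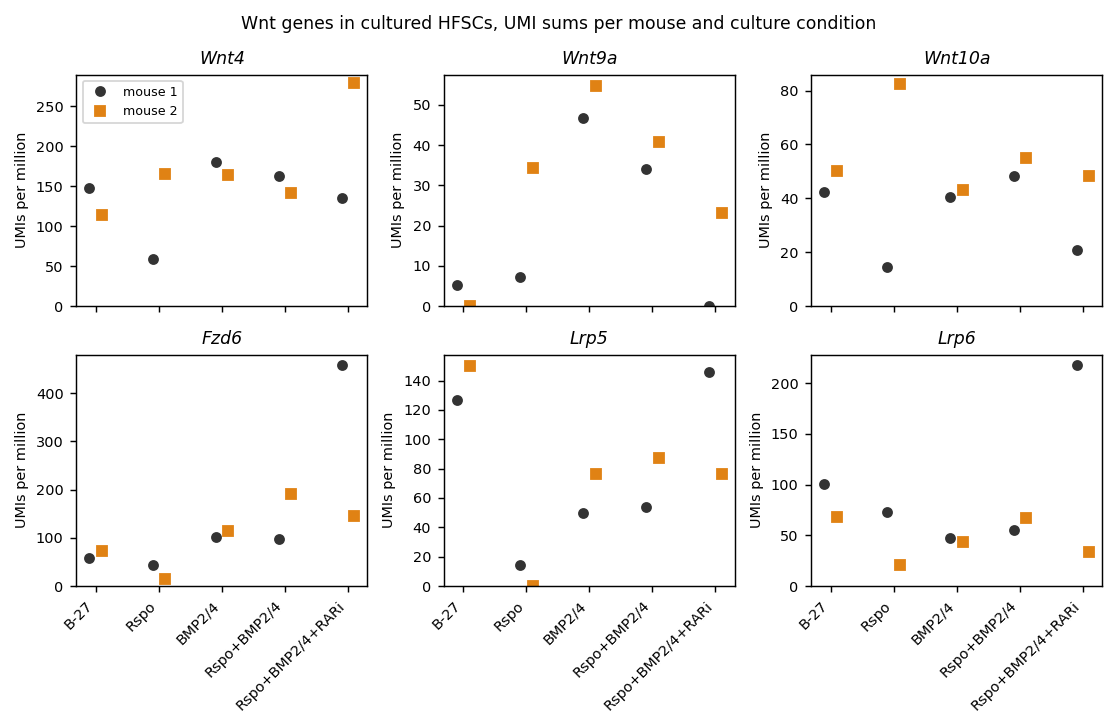
CPM of UMIs of the 6 tested members (y axes) in 5 conditions of cultured HFSCs (x axis), with a circle for the sum of mouse 1 and a square for that of mouse 2. Wnt9a is near 0 in B-27 and at 46.8 and 54.8 in BMP2/4, and the 2 mice lie far apart for Fzd6 and Lrp6 with RARi, where mouse 1 has 5 cells.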

How the data were processed

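RNA-seq of 8 HFSC cultures and single cell RNA-seq of skin and of cultured HFSCs from 2 mice each were analysed. Members and gene lists were chosen with earlier results of these data known. The authors used Salmon 1.4.0 with tximport on mm10 and deposited the estimated count of each gene without normalisation. Single cell files hold whole UMI counts that the authors deposited from Cell Ranger, before free RNA or doublets were removed. A table of normalised values, ATAC-seq and CUT&RUN were not used here.

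Estimated counts were rounded and fitted in edgeR 4.0.16 (R 4.3.3) as 4 group means over 8 libraries, with TMM, filterByExpr, the quasi-likelihood test and Benjamini-Hochberg adjustment over 15965 genes (adjusted p under 0.05). CPM are per library, scaled by TMM. Totals lay between 25150300 and 35879800 counts. Cultures of 1 mouse share a number in both media. Deviations of same-numbered libraries correlated at 0.0668 (wild-type) and -0.0188 (Rxra cKO), and the fit was unpaired.

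Skin cells with at least 500 genes, at least 1000 UMIs and a mitochondrial share under 10% were kept. Scrublet in scanpy 1.11.5 called 4.96% and 2.50% as doublets, which were removed. Cells were clustered (2975 genes, 30 components, 15 neighbours, Leiden resolution 1.0). Clusters took the name of the marker list with the best score when 3 of its markers were in at least 10% of cells. The score also had to reach a set limit, and no other list could have more markers among the leading genes. A cluster of low depth needed a marker of its list among them. A stromal name was withheld at an Epcam level of 100 CPM, a rule set after seeing the data. Of 35 clusters, 8 stayed unnamed. UMIs were summed per mouse and class.

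Hashtags were called with HTODemux (Seurat 5.3.0), and sums of at least 5 cells were tested with edgeR over 6265 genes. Scripts were tested on simulated data. Every tested member was named, and skin and culture members at 10 CPM in both mice. Of the other pathway genes, the called ones at either end of the log2 fold change (2 each) were named. Alternatives were DESeq2 1.42.0, no filter, a stricter threshold, each library left out, the libraries compared alone, a replicate block, and other limits on cells, hashtags, clusters and detection.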

Additional observations from a re-analysis of the deposited data

Results flagged for a closer look

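In 8 members the change between media differed between genotypes by edgeR's interaction test, given as the wild-type minus the Rxra cKO log2 fold change of atRA+PKCi over FBS. The difference was -3.18 for Wnt10b, -2.68 for Wnt3a, -1.24 for Wnt7a and -0.56 for Wnt7b. It was 1.74 for Sfrp1, 1.56 for Fzd4, 1.19 for Fzd8 and 0.60 for Fzd1. These 4 ligands therefore had the lower log2 fold change in wild-type cultures, and the 3 receptors and Sfrp1 the higher one. Of all genes, 11.3% had a higher and 13.3% a lower value by the same test. Fzd8, Fzd1 and Fzd4 lost the call in some alternatives, as given above. Only Wnt10b passed the test in opposite directions in the 2 genotypes. With 2 libraries per group no library could be examined as an outlier.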

How the results depend on the processing

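Over the alternatives, 0 results changed direction while called. For single members, 1283 RNA-seq values stayed on their side of the threshold, 51 lost and 29 gained a call. In cultured cells these numbers were 157, 3 and 2. In skin, 155 levels stayed and 26 moved beyond the spread of the mice. At the stricter threshold (adjusted p of 0.01, log2 change of 1), members lower in wild-type atRA+PKCi were 3. In Rxra cKO atRA+PKCi 5 were then higher and 2 lower. Between genotypes 2 were higher and 1 lower in FBS and 5 higher in atRA+PKCi, and by interaction 1 was higher. Counts within a ratio of 1.5 of the main count are left out. Directions left out still held members, such as Sfrp1, which rose in wild-type cultures and was lower in Rxra cKO atRA+PKCi. Of all 15965 genes, 1381 rose and 1579 fell at this threshold with atRA+PKCi in wild-type, and 817 and 1041 in Rxra cKO. Between genotypes 1105 were higher and 656 lower in FBS and 1406 and 675 in atRA+PKCi, and by interaction 440 and 694. Leaving out 1 library at a time gave 7 to 10 members higher and 7 to 10 lower in wild-type atRA+PKCi, 7 to 11 and 5 to 7 in Rxra cKO atRA+PKCi, 4 to 5 and 6 to 10 between genotypes in FBS, 6 to 8 and 6 to 9 in atRA+PKCi, and 1 to 5 and 4 to 6 by interaction. With the replicate block, which the shared numbers allow, Fzd6 in Rxra cKO (log2 fold change 0.25) had an adjusted p of 0.0515, and no other call of a member changed.

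With BMP2/4 against B-27, members higher were 0 with DESeq2, 2 at a mitochondrial limit of 20% (Fzd6 added, adjusted p 0.0452) and 0 to 1 without 1 sum. With hashtags at 70% of at least 20 counts, 1 was lower (Lrp5, adjusted p 0.0286). In skin, the leading class stayed the same for 26 to 31 of 31 members. At a detection limit of 20 CPM, members detected were 2 in erythroid-like, 10 in fibroblast-like, 10 in hair shaft-like, 11 in medulla-like, 8 in immune-like, 7 in melanocyte-like, 12 in outer root sheath-like and 10 in suprabasal-like cells. At 1000 or more genes and under 5% mitochondrial UMIs, 17 were detected in erythroid-like cells. Leaving out 1 mouse gave 12 to 19 in melanocyte-like cells. The cause of these changes was not tested. Depth limited the cultured sums of 5 cells, where a count of 0 allows up to 31.2 CPM.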

Other observations

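Of the unnamed skin clusters, 4 carried members at marked levels. A cluster of 142 cells led by Csn3, which encodes a milk casein, and Lcn2, which encodes lipocalin-2, had Wnt5b at 197 and 505 CPM in the 2 mice. A cluster of 275 cells led by Acta2, which encodes smooth muscle actin, had Wnt6 at 98.2 and 99.0 CPM, Wnt5a at 89.5 and 145 and Wif1 at 84.8 and 132. In a cluster of 599 cells whose leading genes included Krt15 and Lgr5, genes of the hair follicle epithelium, Fzd1 was at 247 and 256 CPM and Lrp6 at 245 and 260. A cluster of 158 cells led by Areg and Krt18 had Wnt4 at 135 and 166 CPM and Wnt7b at 26.9 and 17.9. These cells belong to no class of the report, and their levels were not tested.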
